A study of Mus musculus with 4 samples.

Results

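Antigen presentation by MHC class I and the interferon response were described through 39 genes, chosen by name as the rows of the deposited table whose gene symbol matched a fixed list. All 39 were among the 26822 genes of the table. RNA-seq libraries came from endothelial cells (ECs) of C57BL/6J mouse retinas at postnatal day 6 (P6), when vessels grow across the retina. The cells were sorted as CD31+/CD45- after collagenase digestion of retina pairs, where CD31 marks ECs and CD45 marks leukocytes, and the labels give their treatment as control. The 4 libraries, numbered as in the labels, form 1 group with no treated, mutant or adult library, so that genes were compared with each other within the same libraries. The study calls them independent samples, but whether each library had its own animals is not in the labels, and p-values therefore measure only the spread between these samples, which may be technical. HUVECs, human cells from the umbilical vein, are named in the text on RNA isolation, which may have been written for other samples.

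MHC class I molecules are made of a heavy chain and the light chain B2m, and they display peptides from inside the cell to CD8+ T cells. The peptides are cut by the proteasome, carried into the endoplasmic reticulum by the transporter TAP and loaded there. Interferons bind receptors on the cell surface whose kinases, Jak1, Jak2 and Tyk2, switch on STAT and IRF transcription factors, which in turn raise class I genes and a large group of interferon-stimulated genes. ECs line the vessel wall and meet circulating leukocytes, and class II molecules, which display peptides to CD4+ T cells, are mostly found on professional antigen-presenting cells.

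Values are read counts per gene that the authors normalised between libraries and rounded. They are called normalised read counts here, in the order of libraries 1 to 4 wherever 4 values are given. To compare genes of different length, values were divided by the length of all annotated exons of the gene and are then given per exonic kilobase. Library totals lay between 14844071 and 15017432. A gene with a mean of at least 10 is called detected. Low values did not follow a smooth course. In library 1 the value 9 was given to 560 genes, the value 8 to 308 and the value 10 to 212. Library 2 had such a peak at 19 (181 genes, against 101 and 97 at the values next to it). In libraries 3 and 4 it lay at 6. How many reads a low value rests on is unknown. The 10 endothelial markers had a median log2 value of 12.51 ± 0.03 (SD, n = 4 libraries). Library 4 stood apart, with all 9 photoreceptor markers (Crx and others) above the range of the other libraries and 6 of 8 pericyte markers as well. Ptprc, which encodes CD45, stood at 11, 1, 1 and 0. The summed level of 14 leukocyte and microglia markers ran from 1450 in library 4 to 2102 in library 3, most of it from Laptm5 (702 to 1034) and Coro1a (710 to 1073). Of the 8 detected genes of this list, 5 were highest in library 1 and 3 in library 3. In library 4, 6 of them were lowest, and in library 2 the other 2. Named after their values were seen, the microglia markers C1qa, C1qb and C1qc stood at 19, 3, 3 and 1, at 35, 11, 17 and 0, and at 27, 13, 11 and 0. Cx3cr1 stood at 19, 1, 32 and 0, and Cd68 at 33, 6, 40 and 18.

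Most of the 39 genes were detected in these cells, and the class II genes, the transactivators and Ifit3 had means near or below the threshold. Of the 39, 35 were detected, against 56% of all genes of the table and 74.8% of its 17349 protein-coding genes. For 15 the mean reached 1000 or more. Ranked by mean among all detected genes, a mean of 1000 lay between the 64.8th and the 65.4th percentile. The 4 genes below the detection threshold were the class II chains H2-Aa and H2-Eb1, the class I transactivator Nlrc5 and the interferon-stimulated gene Ifit3. Per exonic kilobase, the 35 detected genes had a median level of 413, against 161 over the 15000 detected genes with a known exonic length. Levels per exonic kilobase were compressed at the top of the table. The 90th percentile of detected genes was 854 and the 99th was 1546, and the highest gene stood at 1.76 times the level of B2m. Whether duplicate reads had been removed is not given in the sources used here, and its part in this compression was not tested.

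**Figure D1:**
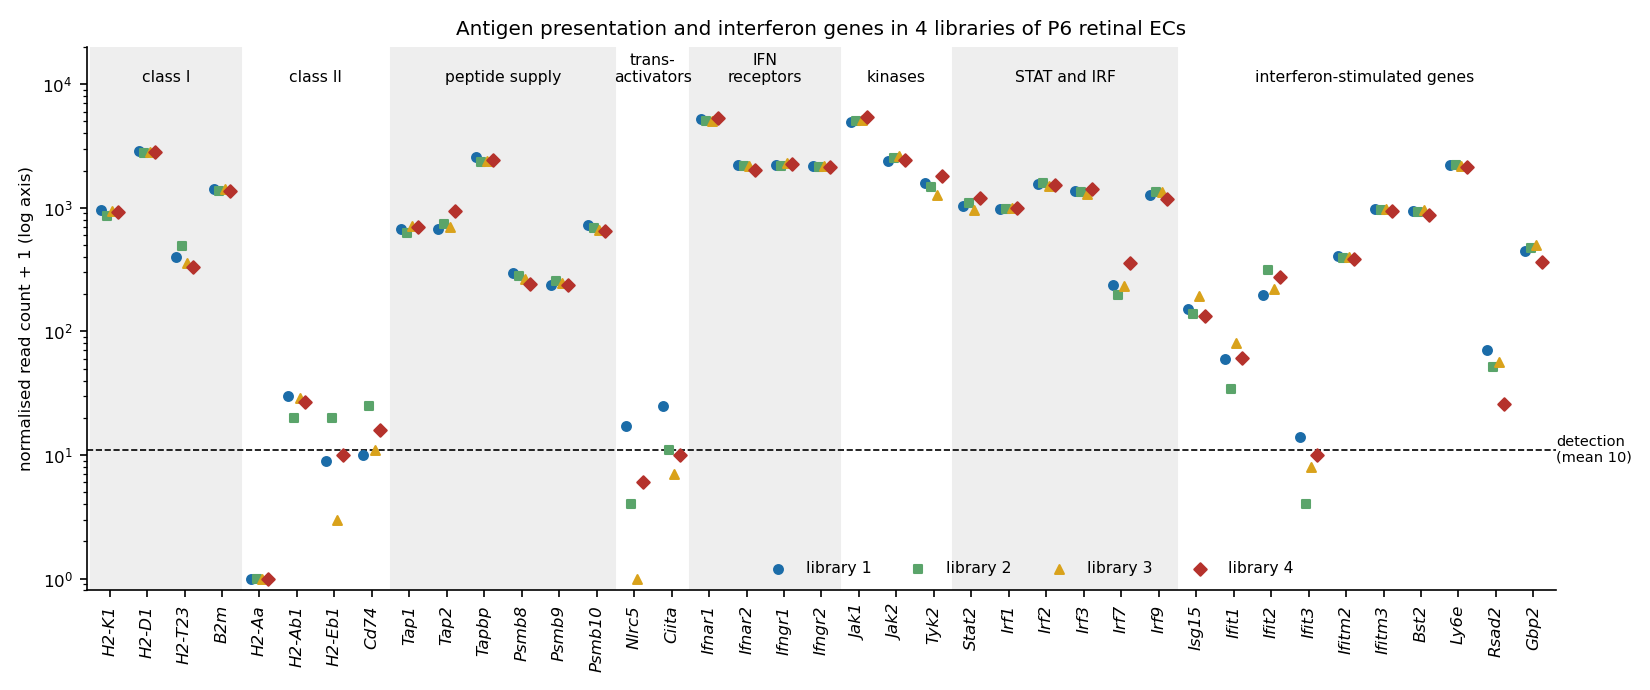
Normalised read count + 1 of each of the 39 genes in libraries 1 to 4 (log axis), grouped by role, with a dashed line at the detection threshold. The class II genes, the transactivators and Ifit3 lie near or below the line, whereas the receptors and kinases all have means above 1000.

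Transcript levels of the class I genes in P6 retinal ECs were described first. B2m, the light chain shared by all classical class I molecules, stood at 1423, 1372, 1425 and 1357. H2-D1, a classical heavy chain of this strain, stood at 2879, 2764, 2851 and 2800, and the other one, H2-K1, at 952, 856, 947 and 924. The 4 libraries were close in each of these genes, with an SD of the log2 values of at most 0.07. The non-classical chain H2-T23, which encodes Qa-1 and presents peptides to receptors of natural killer cells, stood at 402, 486, 359 and 331, highest in library 2 and lowest in library 4.

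Per exonic kilobase, B2m reached 1621 ± 40.6, H2-D1 1343 ± 24.5, H2-K1 556 ± 26.7 and H2-T23 268 ± 45.9 (SD, n = 4 libraries). Ranked among detected genes on this scale, B2m was at the 99.4th percentile and H2-D1 at the 97.3rd. H2-K1 was at the 79.7th percentile and H2-T23 at the 61.0th. These ranks rest on length. As deposited, B2m was at the 74.4th percentile of detected genes, H2-D1 at the 91.7th, H2-K1 at the 62.6th and H2-T23 at the 44.0th. No library of one of these genes overlapped with a library of another per exonic kilobase. H2-K1 was lower than H2-D1 in all 4 libraries, by a log2 difference of -1.27 ± 0.05, which puts H2-D1 2.42-fold above H2-K1. H2-D1 over H2-T23 differed by 2.34 ± 0.25 and H2-K1 over H2-T23 by 1.06 ± 0.30. B2m over H2-K1 differed by 1.55 ± 0.05 per exonic base, by 0.60 as deposited and by 2.23 per coding base. The order of B2m and H2-D1 turned with the length used: B2m was 1.21-fold higher per exonic base, whereas as deposited the log2 difference of B2m over H2-D1 was -1.02, since the exons of B2m span 860 bases and those of H2-D1 2102.

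H2-K1 (chr17:33996017-34000347, GRCm38) and H2-D1 (chr17:35262730-35267499) lie at opposite sides of the MHC region. Their annotated starts carry a closely related stretch, shown here because it is nearly the same in 2 genes that differed in level. In the 30 bases below, 5′ to 3′ on the strand of each gene, capitals mark a match to the NF-kB motif, searched on both strands as GGG and TTCCC with 2 bases between them, and 29 of the 30 bases are identical. They were read from the RefSeq promoter table of GRCm38.p6 and lie at chr17:34000439-34000468 (minus strand) for H2-K1 and at chr17:35262913-35262942 (plus strand) for H2-D1, where GENCODE places it inside the first exon of a longer transcript.
H2-K1: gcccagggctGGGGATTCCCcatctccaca
H2-D1: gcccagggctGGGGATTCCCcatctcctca

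Heavy chain genes share sequence, and the method by which the authors assigned shared reads is not given in the sources used here. Of all 75-base windows in annotated transcripts, 5.40% of those of H2-D1, 3.10% of those of H2-K1 and 5.91% of those of H2-T23 also occurred in transcripts of other genes. The genes that shared most were H2-Q1 for H2-D1, H2-Q10 for H2-K1 and Gm7030 for H2-T23, and B2m shared none. Windows were counted over all annotated transcripts, and only those with all 75 bases the same, so that these shares set no limit on the uncertainty. The part of shared reads in the levels of the heavy chains was not tested.

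Of 20 other class I and class I-like genes in the table, 10 were detected. The highest per exonic kilobase were Fcgrt, the neonatal Fc receptor that protects immunoglobulin G from breakdown, with 1973, 1983, 1978 and 1898, then Cd1d1, which presents lipids, with 1138, 1015, 1058 and 1022. Next was Hfe, a regulator of iron uptake, with 1411, 1336, 1357 and 1272. These 3 genes do not present peptides to CD8+ T cells. Also detected, and named after their values were seen, were Mr1, H2-M3 and H2-T22. Their means were 722.5, 387.75 and 360.25. Named after their values were seen, all 6 genes of the H2-Q group in the table had low means, from 0.25 for H2-Q5 to 16.5 for H2-Q4. H2-Q5 and H2-Q7 shared windows with H2-K1, and H2-Q1 with H2-D1. The part of shared reads in the low values of the H2-Q group was not tested.

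Class II genes were near 0. H2-Aa, the alpha chain of the I-A molecule, was listed at 0 in all 4 libraries, and its partner H2-Ab1 stood at 29, 19, 28 and 26. H2-Eb1, a chain of the I-E molecule, stood at 8, 19, 2 and 9, and Cd74, the invariant chain that guides class II molecules, at 9, 24, 10 and 15. The alpha and beta chains of I-A are needed together for a class II molecule, and only the beta chain passed the detection threshold. The class I chain H2-K1 exceeded the class II chain H2-Ab1 by 4.69 ± 0.20 on the log2 scale per exonic base, 25.7-fold, in 4 of 4 libraries. The summed level of the 4 class II genes was highest in library 2, at 62, and lowest in library 3, at 40. In library 2, H2-Ab1 and H2-Eb1 both stood at 19, the value at which low values peaked in that library. The part of this peak in the sums was not tested. The 12 leukocyte and microglia markers other than Laptm5 and Coro1a summed to 220, 66, 145 and 38, and their part in the class II values was not tested. In sorted cells pooled before sequencing, few cells with many class II transcripts and many cells with few cannot be told apart. Of 7 further class II pathway genes, 4 were detected and none had a mean above 43.5, the mean of H2-Ob. Ifi30, a thiol reductase of the lysosome, and Ctss, the protease cathepsin S, came next per exonic kilobase, and Ctss was highest in library 1 with 35, 8, 4 and 3.

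**Figure D2:**
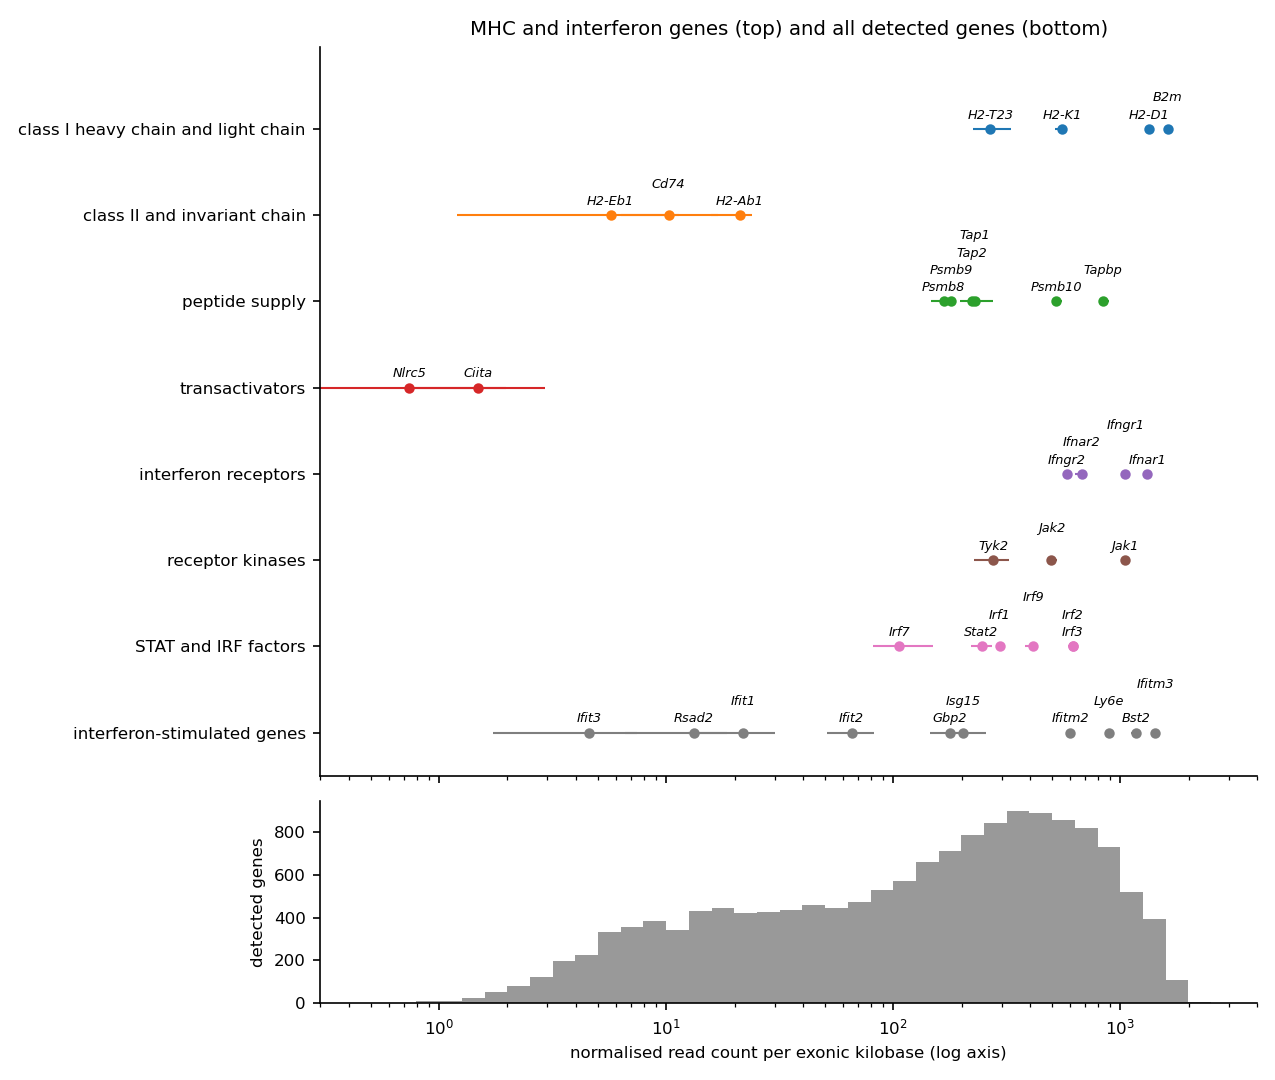
Top, mean normalised read count per exonic kilobase of each gene (points) by role, with lines from the lowest to the highest of 4 libraries (log axis, where 0 cannot be drawn: H2-Aa is left out and the line of Nlrc5 runs off the axis). Bottom, the same quantity for all detected genes. B2m, Ifitm3 and H2-D1 lie at the upper end of the distribution and the transactivators at its lower end.

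The supply of peptides was examined next. Tap1 and Tap2 encode the subunits of the peptide transporter and Tapbp encodes tapasin, which holds class I molecules at the transporter. Tap1 stood at 675, 623, 709 and 696 and Tap2 at 677, 733, 694 and 943, with library 4 of Tap2 above the other libraries. The levels of the subunits overlapped per exonic base: the log2 difference of Tap1 over Tap2 was 0.06 ± 0.22, and the exact two-sided permutation test gave p = 0.657. Tap1 was the higher one in 2 of 4 libraries. Tapbp stood at 2594, 2364, 2368 and 2425, higher than Tap1 in all 4 libraries by 1.88 ± 0.10 on the log2 scale per exonic base and by 2.49 per coding base.

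Under interferon gamma, cells can replace the active subunits of the standard proteasome with Psmb8, Psmb9 and Psmb10, which form the immunoproteasome. All 3 were below the standard subunits whose place they take. Psmb9 stood at 235, 254, 246 and 235, and its counterpart Psmb6 at 1498, 1472, 1487 and 1475, a log2 difference of -3.37 ± 0.06 per exonic base, which puts Psmb6 10.3-fold above Psmb9. As deposited, Psmb6 was 6.10-fold above Psmb9, and the log2 difference per coding base was -2.49. Psmb8 stood at 298, 282, 266 and 239, and Psmb5 at 473, 445, 465 and 448, with a log2 difference of -1.61 ± 0.12 per exonic base, -0.76 as deposited and -0.82 per coding base. Psmb10 was much closer to its counterpart. It stood at 728, 691, 663 and 653, and Psmb7 at 766, 756, 774 and 700, a log2 difference of -0.31 ± 0.07 per exonic base. As deposited, the values of this last pair overlapped. Psmb8 and Psmb10 were both lowest in library 4.

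Psmb9 (chr17:34181987-34187764) and Tap1 (chr17:34187553-34197225) lie head to head on opposite strands and share 212 bases of annotated exons, 15.7% of the exonic bases of Psmb9 and 7.18% of those of Tap1. The libraries were stranded, but the counting is not stated to have used strand, and reads from the shared bases then cannot be told apart. For Tapbp, 23.5% of the exonic bases overlapped genes on the opposite strand. For Tap2 this share was 15.8% and for Psmb8 11.4%.

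All 9 genes for peptide loading and proteasome activation that were fixed as a further list were detected. In 6 the mean reached 1000 or more, where 1000 lies near the 65th percentile of detected genes by mean. Highest per exonic kilobase were Calr (3411, 3316, 3380 and 3300), Canx (6447, 6465, 6501 and 5998) and Pdia3 (3506, 3446, 3480 and 3386). They encode the chaperones calreticulin and calnexin and a disulfide isomerase, which fold many glycoproteins besides class I.

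The transactivators of the MHC genes were hardly seen. Nlrc5, which drives class I genes, stood at 16, 3, 0 and 5, and Ciita, which drives class II genes, at 24, 10, 6 and 9. Both were highest in library 1 and lowest in library 3. Their levels overlapped between libraries, with a log2 difference of Nlrc5 over Ciita of -1.37 ± 1.02 per exonic base (exact two-sided permutation test, p = 0.171), -2.07 per coding base and -0.49 with a pseudocount of 10. Without library 1 they no longer overlapped and the difference was -1.65. All 6 genes of the RFX and NF-Y complexes, through which both transactivators reach DNA, were detected, and Nfyb, Rfxap and Nfyc were the highest per exonic kilobase, with means of 1578, 932.5 and 587.

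Receptors for interferons were among the steadier genes. Ifnar1 and Ifnar2 form the receptor for type I interferons, and Ifngr1 and Ifngr2 that for interferon gamma. Ifnar1 stood at 5215, 5043, 5029 and 5313, and Ifnar2 at 2203, 2191, 2171 and 2002. Ifngr1 stood at 2211, 2161, 2290 and 2243, and Ifngr2 at 2172, 2124, 2188 and 2133. In each receptor the first chain exceeded the second per exonic base in all 4 libraries, by 0.97 ± 0.10 for Ifnar1 over Ifnar2 and by 0.86 ± 0.03 for Ifngr1 over Ifngr2 on the log2 scale. The second of these rests on length. As deposited, Ifngr1 over Ifngr2 differed by 0.05 with overlapping values, and per coding base by -0.48. Ifngr1 over Ifnar1 differed by -0.32 ± 0.05 per exonic base and by -1.21 as deposited. Of the exonic bases of Ifnar2, 9.92% overlapped the gene model Gm21970 on the same strand, and reads from there could be counted for either.

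Jak1 serves both receptors, Tyk2 the type I receptor and Jak2 the gamma receptor. Jak1 stood at 4924, 5030, 5171 and 5427, Jak2 at 2402, 2542, 2640 and 2415, and Tyk2 at 1595, 1479, 1262 and 1807. Jak1 was the highest of the kinases in every library. Per exonic base, Jak1 over Jak2 differed by 1.08 ± 0.09 and Jak1 over Tyk2 by 1.93 ± 0.20. Ifnlr1, the specific chain of the receptor for interferon lambda, was listed at 0 in all 4 libraries and is named after its values were seen. Il10rb, the chain that this receptor shares with that for interleukin 10, stood at 1397, 1325, 1361 and 1286. Genes of the interferons themselves were not analysed here.

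Among the transcription factors, Stat2 and Irf9, parts of the ISGF3 complex that acts after type I interferon, stood at 1039, 1102, 966 and 1198 and at 1258, 1341, 1340 and 1186. Irf9 over Stat2 differed by 0.76 ± 0.20 on the log2 scale per exonic base, and as deposited by 0.25 with overlapping values. Irf1, an activator of class I genes, stood at 973, 971, 997 and 989. Irf2, which can oppose Irf1, stood at 1556, 1578, 1509 and 1541. Irf1 had the smallest spread of the 35 detected genes, an SD of 0.018 on the log2 scale, and Irf1 over Irf2 differed by -1.07 ± 0.04 per exonic base, or by -0.43 with the length of the longest transcript.

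Irf3 and Irf7 relay signals from sensors of viral nucleic acid to the interferon genes, and Irf7 is itself raised by interferon. Irf3 stood at 1358, 1352, 1288 and 1411, and Irf7 at 236, 195, 231 and 357. Irf3 was higher in all 4 libraries, by 2.57 ± 0.34 on the log2 scale per exonic base, a 5.93-fold difference. Library 4 of Irf7 lay above the other 3. Of 14 further receptor, STAT and IRF genes, 12 were detected, and the highest per exonic kilobase were Stat3 (mean 4663), Il10rb (1342) and Stat6 (2610).

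**Figure D3:**
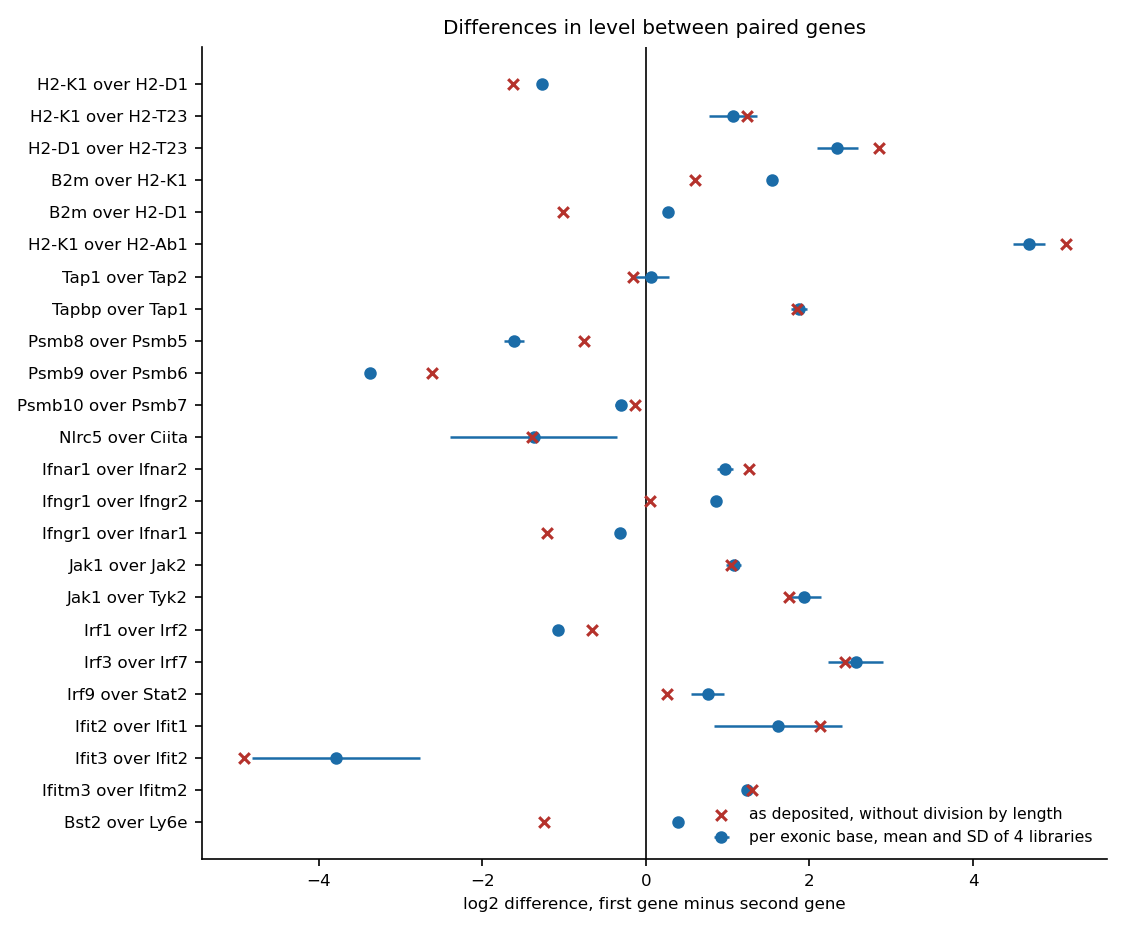
Log2 difference between the genes of each of 24 pairs, first gene minus second. Blue points give the level per exonic base (mean and SD of 4 libraries) and red crosses the values as deposited. B2m over H2-D1 and Bst2 over Ly6e lie on opposite sides of 0 on the 2 scales.

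Interferon-stimulated genes covered a wide range of levels per exonic kilobase, with Ifitm3, Bst2, Ly6e and Ifitm2 at its upper end. Ifitm3, a membrane protein that blocks virus entry, stood at 973, 957, 983 and 948, and its relative Ifitm2 at 407, 388, 396 and 383. Bst2, also called tetherin, which holds budding virus at the cell surface, stood at 949, 923, 957 and 881, and Ly6e, a lipid-anchored surface protein, at 2224, 2230, 2170 and 2155. In each of these 4 genes, library 4 was the lowest. Per exonic kilobase they reached 1424 ± 23.2 (Ifitm3), 1171 ± 43.2 (Bst2), 892 ± 15.4 (Ly6e) and 601 ± 16.0 (Ifitm2), without overlap between neighbours. Ifitm3 over Ifitm2 differed by 1.24 ± 0.03 on the log2 scale. Bst2 over Ly6e differed by 0.39 ± 0.05 per exonic base but by -1.24 as deposited and by -1.58 per coding base. Of the exonic bases of Ifitm2, 40.9% overlapped the gene model Gm45717 on the same strand, so that its level is uncertain.

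A middle group per exonic kilobase was formed by Isg15, Gbp2 and Ifit2. As deposited, the mean of Gbp2, 446, was above that of Ifitm2, 393.5. Isg15, a ubiquitin-like protein, stood at 150, 138, 193 and 131. Gbp2, a GTPase that acts against pathogens within cells, stood at 449, 469, 500 and 366. Their levels per exonic kilobase, 202 ± 36.8 for Isg15 and 177 ± 22.8 for Gbp2, overlapped. Ifit2, of a family that binds viral RNA, stood at 196, 315, 218 and 273.

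The lowest were Ifit1, Rsad2 and Ifit3. Ifit1 stood at 59, 33, 80 and 60. Rsad2, which encodes viperin, an enzyme that makes a chain terminator of viral RNA synthesis, stood at 70, 50, 55 and 25. The level of Ifit3, at 13, 3, 7 and 9, did not reach the detection threshold. Within the Ifit family, Ifit2 over Ifit1 differed by 1.61 ± 0.78 and Ifit3 over Ifit2 by -3.79 ± 1.03 on the log2 scale per exonic base, without overlap between libraries. The size of the second difference is uncertain, at -2.73 with a pseudocount of 10, -4.70 per coding base and -4.92 as deposited. Ifit3 shared 41.1% of its 75-base windows with Ifit3b, which stood at 0, 1, 0 and 0. Among detected genes, Ifitm3 was at the 98.1st percentile per exonic base and Rsad2 at the 14.9th. As deposited, Ifitm3 was at the 64.0th and Rsad2 at the 21.1st.

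Many interferon-stimulated genes carry an interferon-stimulated response element (ISRE), which ISGF3 and other IRF complexes bind. The ISRE core, GAAA repeated after a gap of 2 bases, was searched on both strands from 250 bases before to 50 after each start in the RefSeq promoter table. Of the 39 genes, 33 had an entry, 4 of them with 2 starts. A match lay in 12 of the 33, against 3.99% of all 27025 genes in the table and 3.44% of its 32851 promoters. These were B2m, H2-T23, Stat2, Irf2, Isg15, Ifit1, Ifit3, Ifitm2, Ifitm3, Bst2, Rsad2 and Gbp2, and the 2 matches of Ifitm3 lay after its start. The stretches below show the match, in capitals, in the promoters of high and low genes of this group, 5′ to 3′ on the strand of the gene. Where the capitals begin with TTTC the match is on the other strand.
B2m: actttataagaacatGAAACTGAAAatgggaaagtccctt
Bst2: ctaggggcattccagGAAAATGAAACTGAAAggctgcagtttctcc
Ifitm2: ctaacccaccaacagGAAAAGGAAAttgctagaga
Isg15: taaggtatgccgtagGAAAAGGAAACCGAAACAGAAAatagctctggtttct
Ifit1: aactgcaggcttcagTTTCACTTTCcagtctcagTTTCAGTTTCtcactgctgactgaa
Rsad2: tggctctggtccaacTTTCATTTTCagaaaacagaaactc
Ifit3: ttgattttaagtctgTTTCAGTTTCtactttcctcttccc

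These stretches lie at chr2:122147533-122147572 (B2m, plus strand), chr8:71537572-71537617 (Bst2, minus), chr7:140955988-140956022 (Ifitm2, minus), chr4:156200860-156200911 (Isg15, minus), chr19:34640770-34640828 (Ifit1, plus), chr12:26456548-26456587 (Rsad2, minus) and chr19:34583392-34583431 (Ifit3, plus) of GRCm38.p6. All lie outside the annotated gene bodies. Overlapping matches run together in Bst2, with 2, and in Isg15, with 3. Genes with a match stood at both ends of the range, with B2m at 1621 and Bst2 at 1171 per exonic kilobase, and Ifit1 at 21.8, Rsad2 at 13.2 and Ifit3 at 4.58. Among interferon-stimulated genes with an entry, only Ifit2 had no match within this window.

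Other motifs were less concentrated. The core that single IRF proteins bind, AANNGAAA, lies inside the ISRE core and was found in 15 of 33 genes, against 26.7% of all genes. The gamma-activated site, searched as TTCNNNGAA, was found in 8 of 33, against 9.55% of all genes, in Irf1, Irf2, Psmb8, Ifnar1, Ifnar2, Ifit2, Ifitm3 and Bst2, and that of Bst2 overlaps its ISRE. The NF-kB motif printed above was found in H2-K1, H2-D1 and H2-Aa, 3 of 33, against 2.01% of all genes. H2-D1 stood at 1343 per exonic kilobase and H2-Aa at 0. The GC box GGGCGG was found in 19 of 33, against 38.2% of all genes, and in the promoters of all 4 receptor chains. A match is a description of letters and not a test of binding.

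**Figure D4:**
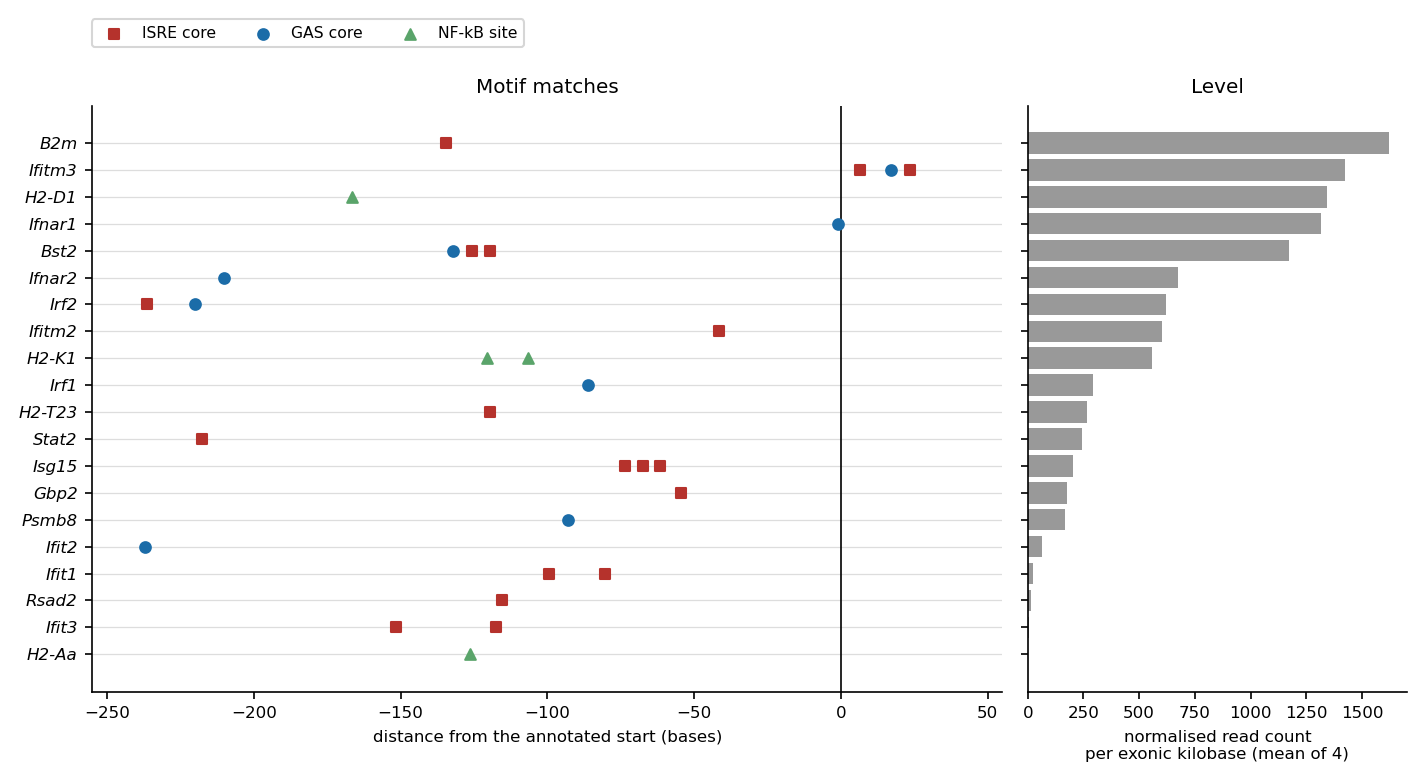
Left, position of ISRE, GAS (gamma-activated site) and NF-kB matches relative to the annotated start (bases) in the genes that have any of them, ordered by level. H2-K1 has 1 site drawn relative to each of its 2 annotated starts. Right, mean normalised read count per exonic kilobase. ISRE cores lie in front of B2m at the top and of Ifit1, Rsad2 and Ifit3 near the bottom.

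Of 70 further interferon-stimulated genes in the table, 52 were detected. In 9 the mean reached 1000 or more, where 1000 lies near the 65th percentile of detected genes by mean. Highest per exonic kilobase were Lgals9, which encodes galectin-9, with 2436, 2322, 2409 and 2334, Shisa5, with 2674, 2568, 2647 and 2797, and Ifi27, with 769, 697, 666 and 637. Others of this list were almost absent. Named after their values were seen, Oas2 stood at 7, 2, 1 and 1, Oas3 at 8, 0, 0 and 5, the chemokine Cxcl9 at 0, 0, 4 and 0, and the chemokine Ccl5 was listed at 0 in all libraries. Oas2 and Oas3 encode enzymes of the antiviral response that interferon raises in many cells. The other Oas and Oasl genes of this list are also named after their values were seen. Their means were 438.75 (Oasl2), 83 (Oas1b), 50 (Oasl1), 32.25 (Oas1c), 16 (Oas1a) and 0.25 (Oas1g). The median level of the detected genes of this list was 67.8 per exonic kilobase, against 202 for the 9 detected interferon-stimulated genes of the main list and 161 for all detected genes.

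Of 18 sensors and adaptors of nucleic acid sensing in the table, 15 were detected. Sting1, the adaptor of DNA sensing, had 1934, 1931, 1937 and 1723, the kinase Tbk1 1818, 1764, 1750 and 1651, and the adaptor Myd88 962, 1038, 1092 and 1043. Tlr3, a sensor of double-stranded RNA, stood at 1604, 1672, 1937 and 1048 and varied more than genes of its level, as defined below. Among 10 negative regulators, 9 were detected, led by the phosphatases Ptpn1 and Ptpn2 and by Pias1. Socs3, an inhibitor of cytokine receptors, stood at 376, 280, 519 and 715, and Ptpn11, which encodes the phosphatase SHP2, at 1425, 1735, 1664 and 1171. Both also varied beyond the trend.

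The 24 pairs of genes described above were compared by the exact two-sided permutation test of 4 values against 4, for which 0.0286 is the smallest p. In 22 of them the values did not overlap, and each of these reached it, with an adjusted p of 0.0312 over the family. This test treats the values of both genes as independent samples although they come from the same libraries. Paired by library, a sign-flip test of 4 differences cannot reach 0.05, so that no pair would pass it. Over all pairs of detected genes, 89% did not overlap either, so that the count says little about these pairs in particular, and the sizes above are the result. The exceptions were Tap1 with Tap2 and Nlrc5 with Ciita. Without library 4, 22 pairs were still free of overlap.

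Spread between libraries was set against the trend of all detected genes, and a gene was called varying where the SD of its log2 values exceeded the trend by a robust z above 3. None of the 35 detected genes passed, against 4.01% of all 15012 detected genes. No p belongs to this call. The highest z was 2.33 for Tyk2, followed by Tap2 and by Irf7 at 1.45. The median SD on the log2 scale was 0.07 for the 35 genes and 0.156 for all detected genes, which include many of lower level. Of 120 detected genes of the further lists, 3 passed, namely Tlr3 (z = 5.32), Socs3 (4.72) and Ptpn11 (3.01).

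**Figure D5:**
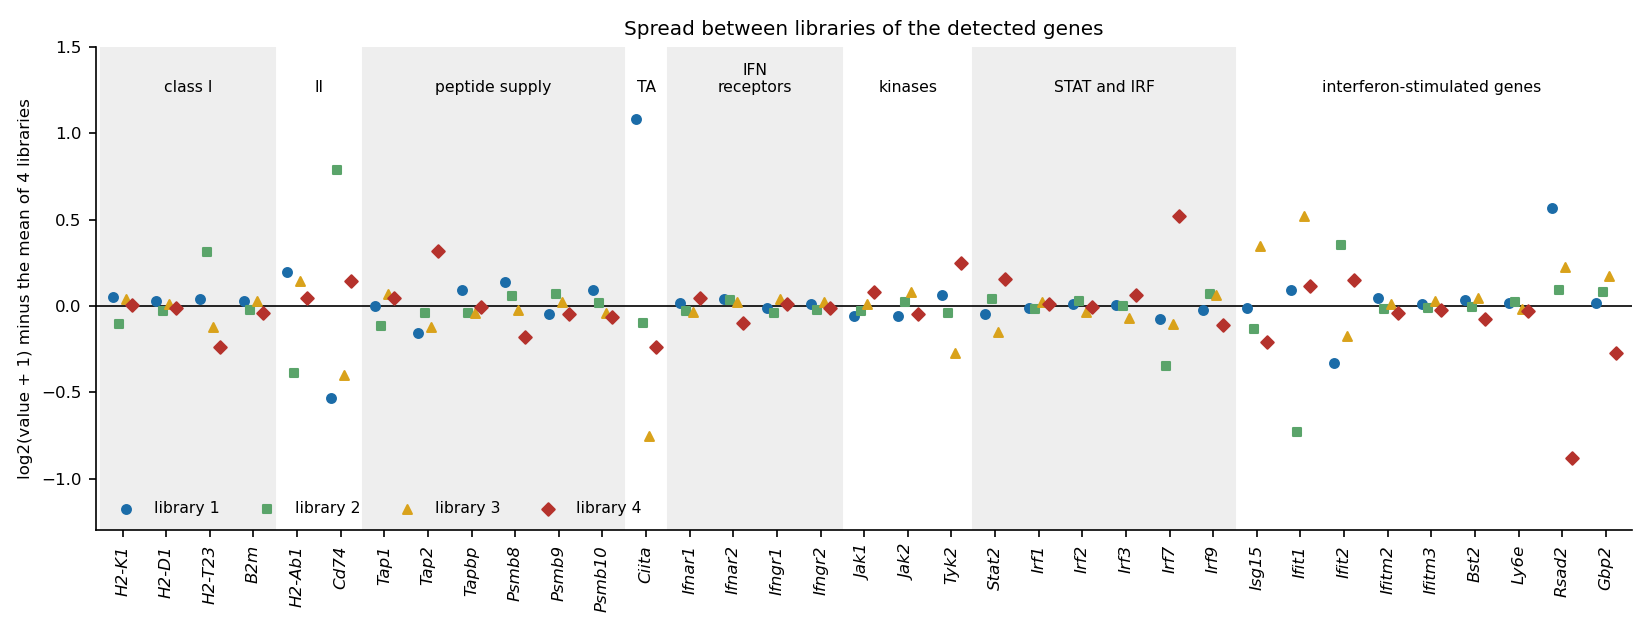
Log2(value + 1) of each detected gene in each library minus its mean over 4 libraries, grouped by role (II, class II; TA, transactivators). Irf7, Tap2 and Tyk2 are highest in library 4, and 7 of the 9 interferon-stimulated genes are lowest there.

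Library 4 was set against the other libraries because it stood apart in its markers. It lay above the range of libraries 1 to 3 in 7 of the 35 genes, against 30.6% of all detected genes, and below it in 13, against 33%. The 7 were Tap2, Ifnar1, Jak1, Tyk2, Stat2, Irf3 and Irf7, none of them among the interferon-stimulated genes. The largest log2 difference of library 4 from the mean of the other 3 was 0.70 for Irf7, followed by 0.43 for Tap2 and 0.33 for Tyk2. At the other end, 7 of 9 interferon-stimulated genes lay below the other libraries, Rsad2 by a log2 difference of -1.18, Gbp2 by -0.37 and Isg15 by -0.27. For the 4 highest per exonic kilobase, Ifitm3, Ly6e, Ifitm2 and Bst2, the differences were at most 0.10 in size. With libraries rescaled to the endothelial markers, 5 of the 9 lay below, against 27.6% of all detected genes and 4 of 10 endothelial markers. Without rescaling, 22 of the 52 other detected interferon-stimulated genes lay below in library 4. Of 10 endothelial markers, 7 did, of 8 detected leukocyte and microglia markers 6 did, and all 9 photoreceptor markers lay above, with a median log2 difference of 1.32. The part of these other transcripts in the values of library 4 was not tested.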

How the data were processed

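Libraries were stranded poly(A) RNA-seq, read from a single end with 75 bases, per the labels. The deposited values are a score in the sense that the authors normalised read counts per Ensembl gene between libraries, by a method not given in the sources used here, and rounded them. FastQC is the only tool in the submitters' processing notes. For these mouse samples, aligner, annotation and duplicate removal are not given in the sources used here, since the RNA-seq method of the study, with STAR as the aligner, was written for human ECs, and how many reads a value rests on is unknown, so no count model was fitted. Of 26789 identifiers found in GENCODE M21 (GRCm38), 99.2% had equal positions, and exonic length was the union of exons of its basic transcripts. For 11 repeated symbols the entry with the highest mean was kept. The unused columns hold identifiers and annotation only. Tests ran on log2(value + 1), which understates differences of low genes, with Benjamini-Hochberg adjustment over 24 pairs. Variation was judged against a lowess trend (fraction 0.2, 3 iterations). Python 3.11.15, pandas 2.3.3, NumPy 2.4.6 and statsmodels 0.14.6 were used.

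The 39 genes, the pairs and the further lists were chosen with earlier results of these data known. All 39 genes are accounted for. Of each further list, the 3 genes highest per exonic base and any gene called varying are named, and others except Ifit3b are marked as named after their values were seen. Lists of endothelial, leukocyte, photoreceptor, progenitor, pericyte, erythroid and lymphoid markers served to describe the libraries. The choice of single genes named from these marker lists, and of Ifit3b, was not fixed beforehand. Alternatives were other lengths, pseudocounts of 0.5 and 10, other thresholds and scalings, and leaving out each library.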

Additional observations from a re-analysis of the deposited data

Results flagged for a closer look

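Ifnar2, a chain of the type I interferon receptor, stood at 2002 in library 4, against 2171 to 2203 in the other libraries, a gap that took up most of the range and passed the 95% limit of Dixon's test. The median log2 value over all 39 genes did the same, at 9.78 in library 4 against 9.47 to 9.52. Over the 35 detected genes, the median log2 difference of library 4 from the mean of the others was -0.02. Of 44 genes and group medians tested in this way these 2 passed, and chance alone would give about 2.2.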

How the results depend on the processing

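Of 24 pairs, 22 did not overlap, and under the alternatives this count ran from 19 to 23. Without division by length, B2m over H2-D1 turned to -1.02 and Bst2 over Ly6e to -1.24 (log2), and overlap appeared for Psmb10 over Psmb7 (-0.13), Ifngr1 over Ifngr2 (0.05) and Irf9 over Stat2 (0.25). With coding length from GENCODE, chosen after seeing the data, Ifngr1 over Ifngr2 turned to -0.48 and Bst2 over Ly6e to -1.58, and Psmb10 over Psmb7 overlapped at -0.11. These lengths differ from exonic length by construction. The longest transcript, also chosen after seeing the data, and both other pseudocounts changed no call, although sizes moved by over 1.5 times for Irf1 over Irf2 (-0.43 with the longest transcript) and, with a pseudocount of 10, for Nlrc5 over Ciita (-0.49) and Ifit3 over Ifit2 (-2.73). Leaving out 1 library changed only Nlrc5 over Ciita, which ran from -1.65 to -0.90 and lost its overlap without library 1. Detected genes numbered 32 to 38 under other thresholds and 35 or 36 without 1 library. Genes varying beyond the trend stayed at 0 of those detected under every alternative, while the share of all genes ran from 2.96% to 4.56%. Genes above and below the other libraries in library 4 numbered 8 and 12 after rescaling by the median ratio, and 8 and 11 after rescaling by endothelial markers. Over all detected genes, the shares above and below were 32.6% and 31.5% after the first rescaling and 35.3% and 27.6% after the second. Coding length from RefSeq proteins was not run, because no such table was used here. Paired by library, no pair could reach 0.05 with 4 libraries. There is no second group for a replicate block. The unknown read depth limits the genes near the threshold of 10, among them the class II genes, Nlrc5, Ciita and Ifit3.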

Other observations

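Other cell types of the retina were measured alongside. Pericyte and smooth muscle markers differed most between libraries, with summed levels of 2036, 567, 2226 and 3738, and 6 of the 8 varied beyond the trend. Among them Rgs5 stood at 1222, 298, 1103 and 1879. Progenitor and Mueller glia markers summed to 5406, 4633, 4386 and 6240. Erythroid markers were highest in library 3, with sums of 459, 249, 826 and 394. Zbtb46, placed in the list of lymphoid and dendritic cell markers, stood at 1723, 1839, 1783 and 1788, whereas Itgax, another dendritic cell marker, was listed at 0 in all 4 libraries. The B cell markers Cd79a and Cd79b were also detected, at 13, 17, 17 and 18 and at 16, 5, 11 and 11.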
